A study of Mus musculus with 6 samples.

Results

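The 39 genes described here encode the core autophagy machinery and the main factors of mitophagy, and they were taken by gene symbol from the Ensembl rows of a gene expression matrix that listed 60193 genes. All 39 were found, and 32 of them had a mean FPKM (fragments divided by the length of the transcript and the size of the library) of at least 1 over the 6 samples. RNA of metaphase II (MII) oocytes from ICR mice, an outbred strain, was sequenced at the advanced reproductive age of 42 to 45 weeks, and 3 samples of oocytes matured in vitro (IVM) were set against 3 samples of oocytes matured in vivo (IVO). All donors had received pregnant mare's serum gonadotropin. IVM oocytes were taken from the ovary at the germinal vesicle stage, freed of their cumulus cells and cultured in M16 medium, while IVO donors also received human chorionic gonadotropin and their oocytes were recovered from the oviduct and freed of cumulus cells with hyaluronidase. Each sample was a pool of oocytes from several mice, and no genetic manipulation was involved. No oocytes of young mice were part of the comparison, so the values describe the maturation route within aged animals.

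Autophagy encloses cytoplasm in a double membrane, the autophagosome, and delivers it to the lysosome for breakdown. The ULK kinase complex starts the process, a class III phosphatidylinositol 3-kinase (PI3-kinase) complex marks the site with the lipid PI3P, WIPI and ATG2 proteins feed the growing membrane, and a pair of ubiquitin-like conjugation systems attaches the small ATG8 proteins (the LC3 and GABARAP branches) to it. Cargo receptors link ubiquitinated cargo to ATG8 proteins, and in mitophagy the cargo is a mitochondrion, marked by PINK1 or by receptors in its outer membrane. A fully grown oocyte is transcriptionally quiet, so the RNA in an MII oocyte is mostly a maternal store that is translated, deadenylated or degraded during maturation.

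The FPKM of all genes summed to 1826738 to 2111776 per IVM pool and to 1560813 to 1643682 per IVO pool. Depth was estimated from the spacing of low FPKM values, at 16500000 to 19100000 fragments per IVM pool and 17900000 to 18100000 per IVO pool. For a transcript of 1000 bases, 3 fragments were worth 0.196 to 0.233 FPKM, a floor for counting error alone because PCR copies are not separate molecules. The inferred mean fragment length was 201 to 219 bases in IVM and 249 to 264 bases in IVO pools. All 10 oocyte markers were detected (summed FPKM 11195 to 13784 in IVM and 8142 to 9115 in IVO), and 5 of them, including Zp1, Zp2 and Zp3 of the zona pellucida, were called lower in IVO. Of 16 cumulus and granulosa markers, 4 reached a mean of 1 FPKM and Amh was listed at 0 in all samples, with sums of 32.5 to 64.0 FPKM in IVM and 37.7 to 59.6 in IVO. These sums came mostly from Fshr, Amhr2 and Cyp19a1. Tnfaip6, Has2 and Ptx3, all under 1 FPKM, lay higher in every IVO pool than in any IVM pool. Tnfaip6 stood at 0 to 0.14 FPKM in IVM and 0.34 to 0.49 in IVO, and the other markers of this list overlapped between the groups. Of 4 oviduct markers, 0 reached that level. Of 8 blood and immune markers, 2 reached it (Cd68 and Lyz2), with sums of 1.73 to 2.45 FPKM in IVM and 3.01 to 21.9 in IVO, and the highest sum came from IVO3, where Lyz2 stood at 15.7 FPKM. The part of these cells in the results below was not tested. In a pool, less RNA of a gene per oocyte and fewer oocytes that carry it cannot be told apart.

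The groups were compared by limma on log2(FPKM + 1), and a differentially expressed gene (DEG) had an adjusted p-value under 0.05 with a log2FC of at least 1 in size. Every log2FC given is a difference on that log2(FPKM + 1) scale, where changes of scarce genes are understated, and a negative value means a lower level in IVO. Over all 18818 tested genes the median log2FC was -0.30, which median-ratio scaling moved to -0.04 and quantile normalization to 0.17. These 18818 include assembled loci, whereas the genes described here are all Ensembl genes. In a fit of the 13154 Ensembl genes alone, 1972 were called lower and 84 higher, and the median log2FC was -0.185. The shares and medians of all genes given below are those of the 18818. Of the 32 autophagy and mitophagy genes tested, 5 (15.6%) were DEGs with a lower level in IVO, beside 17.9% of all tested genes, and 0 had a higher level, beside 0.606%. At an unadjusted p-value under 0.05 from limma, 10 were lower, beside 31.4% of all genes, and 3 were higher, beside 5.56%. The adjusted p-value alone was under 0.05 for 6 lower genes, beside 21.5% of all genes, and for 1 higher gene, beside 1.87%, or 7 in either direction, beside 23.4%. In 10 genes the 3 IVO values all lay below the 3 IVM values, beside 32.6% of all genes, and in 6 genes they all lay above, beside 9.62%. Their median log2FC was -0.31, and 16 of the 32 lay below the median of all genes and 16 above it. The counts of lower genes and the median stood near the background of the 18818 genes. The counts of higher genes rested on few genes, and what follows concerns the individual genes. The count of 5 lower and 0 higher became 2 and 1 with median-ratio scaling and 2 and 2 with quantile normalization. It was 3 and 0 without IVO1 and also without IVO2.

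**Figure D1:**
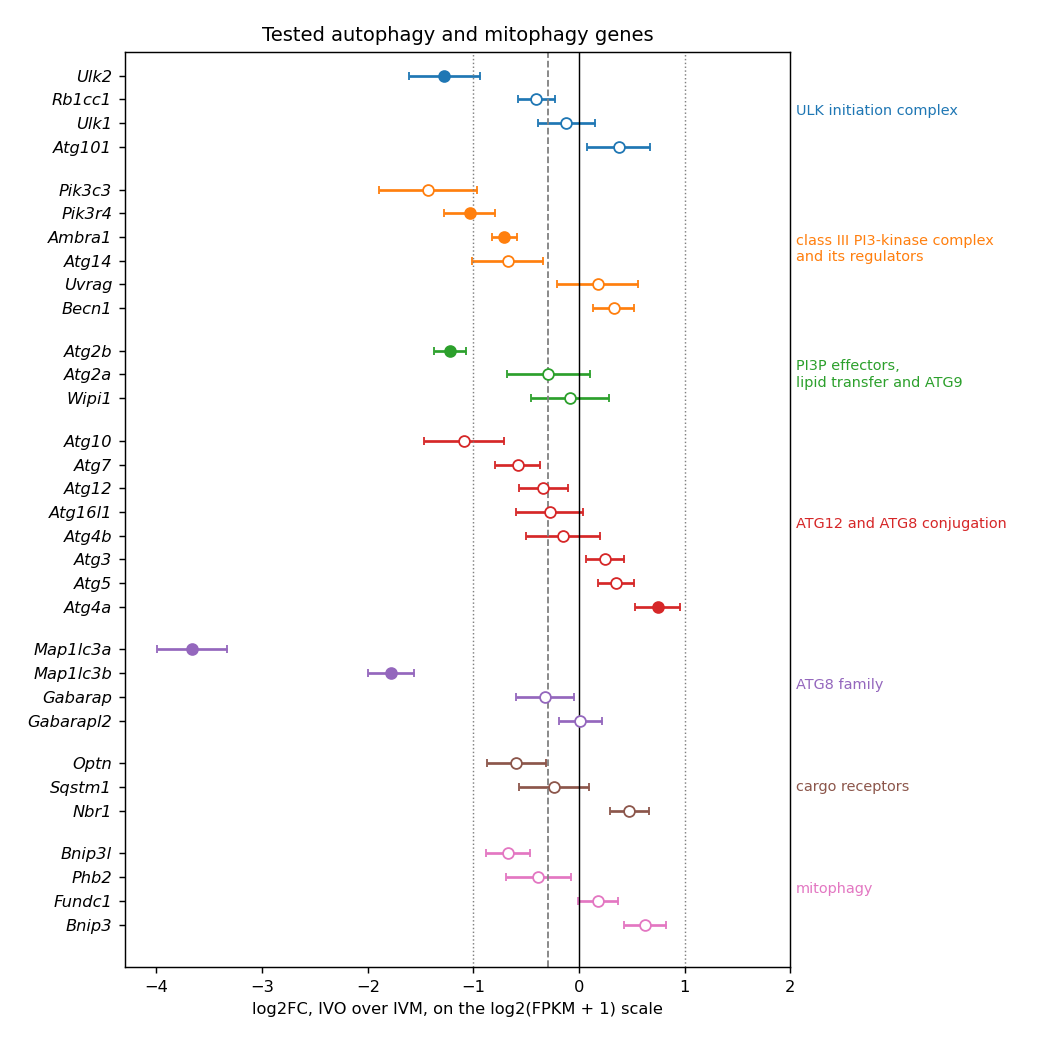
The log2FC of IVO over IVM on the log2(FPKM + 1) scale for the 32 tested autophagy and mitophagy genes, grouped by role, with bars of 1 standard error. Filled points have an adjusted p-value under 0.05 (6 lower, 1 higher), the dashed line marks the median of all tested genes at -0.30, and the dotted lines mark a log2FC of -1 and 1. Map1lc3a (-3.67) and Map1lc3b (-1.78) lie farthest to the left.

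The ATG8 family held the gene with the most negative log2FC of the 32, and its LC3 and GABARAP genes had unlike values. Map1lc3a and Map1lc3b, which encode LC3A and LC3B, the lipid-anchored proteins commonly used as markers of autophagosomes, were both DEGs lower in IVO. Gabarapl2, which encodes a protein of the GABARAP branch, had nearly the same FPKM in both groups. Map1lc3a lies at chr2:155118217-155119998 on the plus strand of GRCm39, Map1lc3b at chr8:122317100-122325499 on the plus strand and Gabarapl2 at chr8:112667322-112682011 on the plus strand. Since stored oocyte mRNAs are handled through their 3′ ends, the stretch of the last exon that holds the poly(A) signal is shown for these genes, read from the annotated canonical transcript, with the signal AATAAA in capitals.
Map1lc3a, chr2:155119954-155119983, plus strand: ctctgcagaaagAATAAAgactgctcaggc
Map1lc3b, chr8:122323716-122323745, plus strand: ttagaagttaaaAATAAAatactttttgca
Gabarapl2, chr8:112680215-112680244, plus strand: attcatacagataaaAATAAAtctttcttt
These 3 genes carry the same AATAAA signal, and none of them holds the cytoplasmic polyadenylation element TTTTAT or TTTTAAT in the last 100 bases of that transcript. The lengths that the authors' matrix gives for Map1lc3a (1112 bases) and Map1lc3b (2633 bases) differ from those of the canonical transcripts (823 and 889 bases), so other 3′ ends could be in use.

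Map1lc3a stood at 76.2, 31.9 and 55.9 FPKM in IVM1 to IVM3 and at 2.91, 3.95 and 2.65 FPKM in IVO1 to IVO3. The lowest IVM sample was thus far above the highest IVO sample, and the mean FPKM was 17.2-fold lower in IVO (54.6 ± 22.2 in IVM and 3.17 ± 0.688 in IVO, SD, n = 3). Its log2FC was -3.67 (standard error, SE, 0.33, adjusted p = 0.00125 by limma), or -3.37 relative to the median of all genes, and only 0.5% of the tested genes had a more negative log2FC. The 3 IVO values rested on 41 to 61 inferred fragments each. Its listed length was the shortest of the called genes here, and with each library's trend with gene length removed the log2FC was -3.45. The adjusted p-value of Map1lc3a was under 0.05 in all 16 alternatives, with a log2FC from -4.0 to -3.20.

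Map1lc3b stood at 162, 151 and 115 FPKM in the IVM pools and at 46.5, 34.01 and 41.5 FPKM in the IVO pools. No IVO value came near the IVM range, and the mean was 3.50-fold lower in IVO (log2FC -1.78, SE 0.21, adjusted p = 0.00246 by limma). It was also under 0.05 in all 16 alternatives, with a log2FC from -1.93 to -1.28. Gabarapl2 had 52.7, 56.7 and 42.2 FPKM in the IVM pools and 53.5, 55.8 and 43.2 in the IVO pools. Its groups overlapped fully, with a log2FC of 0.01 (SE 0.20, adjusted p = 0.978), which is 0.31 above the median of all genes. Gabarap was scarce, at 1.68 to 3.06 FPKM in IVM and 1.48 to 2.29 in IVO (log2FC -0.32, SE 0.27, adjusted p = 0.44), and Gabarapl1 was listed at 0 in 3 samples and at no more than 0.18 FPKM in the others.

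**Figure D2:**
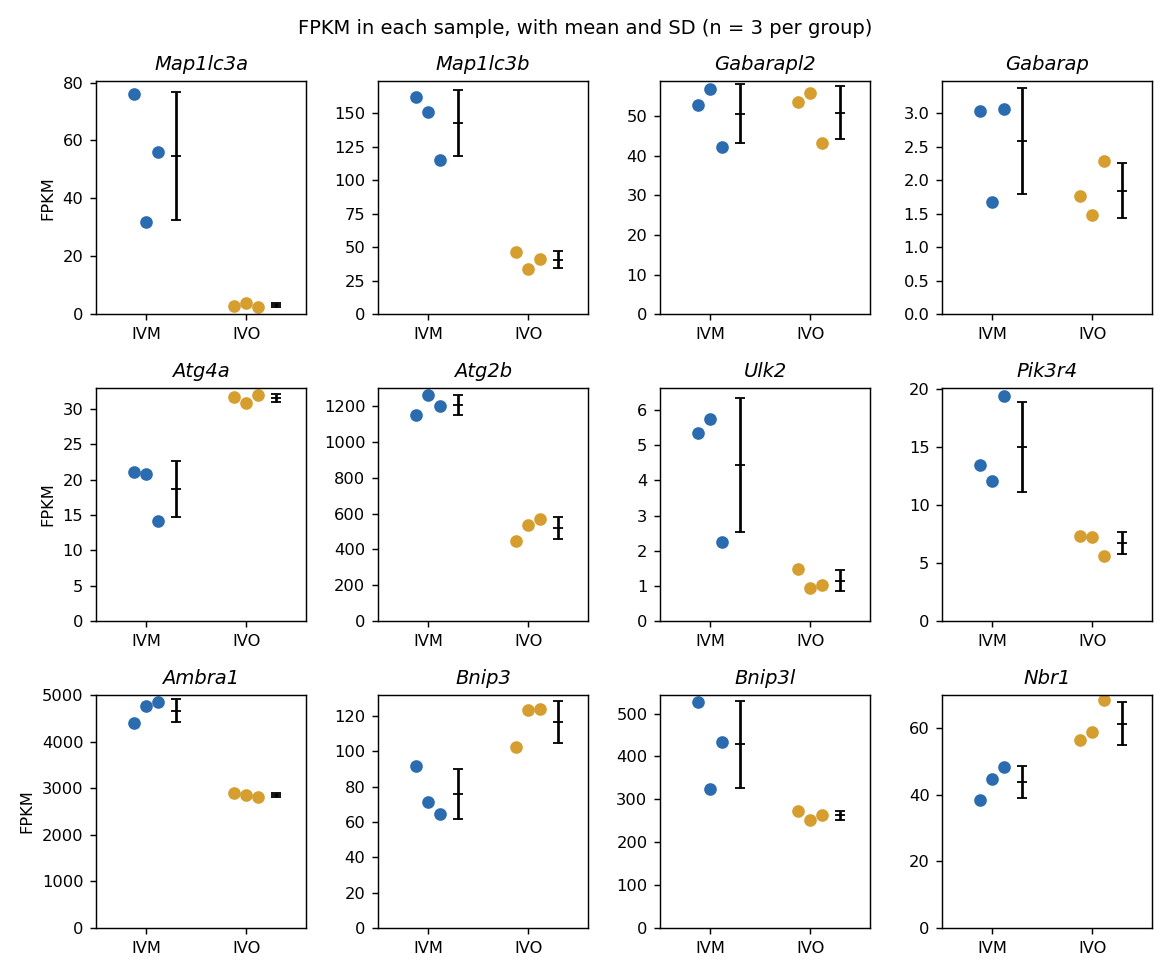
FPKM of 12 genes in each sample, on linear axes that start at 0, with a point per sample (IVM1 to IVM3 in blue, IVO1 to IVO3 in orange) and the mean with its SD beside them. The IVM and IVO points of Map1lc3a, Map1lc3b, Atg2b and Ambra1 are widely separated, those of Gabarapl2 cover the same range, and those of Atg4a, Bnip3 and Nbr1 lie higher in IVO.

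The composition of the ATG8 family was then described. FPKM is per length of transcript, so the levels of the 5 genes could be summed, and the sum was 294, 241 and 216 in the IVM pools and 105, 95.3 and 89.9 in the IVO pools. Map1lc3b made up 57.0% ± 4.93 of this sum in IVM and 42.1% ± 5.64 in IVO (SD, n = 3). Map1lc3a made up 21.7% ± 7.29 in IVM and 3.29% ± 0.744 in IVO. Gabarapl2 held 17.9%, 23.5% and 19.5% in the IVM pools and 51.1%, 58.5% and 48.1% in the IVO pools. By FPKM, Map1lc3b was thus the highest ATG8 gene in each IVM pool and Gabarapl2 in each IVO pool. The order in IVO rests on the listed lengths, and that of Map1lc3b (2633 bases) differs from its canonical transcript (889 bases). In inferred fragments, Map1lc3b exceeded Gabarapl2 in each IVO pool (1996, 1450 and 1783 against 1370, 1423 and 1111). The share of Gabarapl2 was 32.2 percentage points higher in IVO, and 29.3 to 34.5 points higher with any 1 sample left out. A share within a sample does not depend on how that library is scaled. These shares were computed after the gene values had been seen and were given no test, and 3 samples against 3 could not reach an exact permutation p below 0.1.

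**Figure D3:**
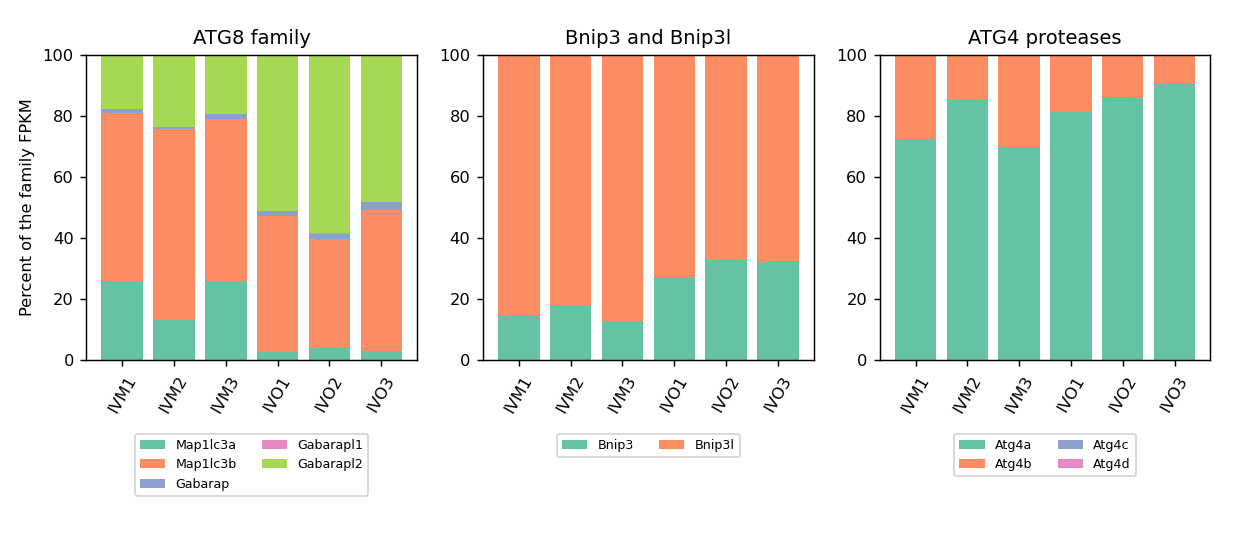
Stacked bars of the percent of the family's summed FPKM held by each member in each of the 6 samples, for the ATG8 family, for Bnip3 with Bnip3l and for the ATG4 proteases. Gabarapl2 takes 17.9% to 23.5% of the ATG8 sum in IVM and 48.1% to 58.5% in IVO, and Bnip3 takes 12.9% to 18.1% of its pair in IVM and 27.3% to 32.8% in IVO, while the ATG4 shares overlap between the groups.

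Conjugation of ATG8 proteins needs the E1-like ATG7, the E2-like ATG3 and ATG10, the ATG12, ATG5 and ATG16L1 scaffold, and the ATG4 proteases that trim ATG8 proteins and release them from membranes. Of these 10 genes, 8 were tested and 0 were DEGs in either direction, with 2 lower (beside 31.4% of all genes) and 1 higher (beside 5.56%) at an unadjusted p-value under 0.05. The median log2FC of these 8 was -0.22. Atg4a, at chrX:139854582-139947293 on the plus strand, was the 1 autophagy gene higher in IVO by the adjusted p-value. Its values were 21.1, 20.8 and 14.2 FPKM in the IVM pools and 31.7, 30.9 and 32.0 in the IVO pools. The IVO pools lay close together and above all IVM pools, 1.69-fold higher in the mean, with a log2FC of 0.74 (SE 0.21, adjusted p = 0.0438 by limma), or 1.04 relative to the median of all genes. With any 1 sample left out the log2FC was 0.57 to 0.84 and the adjusted p-value 0.0619 to 0.113, so the call rested on all 6 samples. With median-ratio scaling (log2FC 1.06, adjusted p = 0.0244) and with quantile normalization (1.23, adjusted p = 0.0132) Atg4a was a DEG higher in IVO. Its exons share 66 bases with Psmd10 on the opposite strand, which stood at 20.1 to 22.9 FPKM in IVM and 12.6 to 18.4 in IVO. The part of this overlap in the values of Atg4a was not tested.

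Among the ATG4 proteases, Atg4a held 69.9% to 85.2% of the protease FPKM in the IVM pools and 81.3% to 90.6% in the IVO pools, Atg4b held most of the rest, and Atg4c and Atg4d were at or near 0. Atg10 had the highest mean FPKM of the conjugation genes over the 6 samples, although Atg5 was higher in the IVO mean, and it stood at 496, 848 and 337 FPKM in the IVM pools and 328, 171 and 260 in the IVO pools. Its groups were separated by a gap smaller than the spread within each of them, and its log2FC of -1.09 (SE 0.38) did not pass, with an adjusted p of 0.078. Atg5 stood at 231, 189 and 251 FPKM in the IVM pools and at 295, 296 and 262 in the IVO pools, a log2FC of 0.35 (SE 0.17, adjusted p = 0.189) that became 0.67 (adjusted p = 0.0303) with median-ratio scaling. Atg3 had a log2FC of 0.25 (adjusted p = 0.379), Atg7 of -0.58 (adjusted p = 0.0935), Atg12 of -0.34, Atg16l1 of -0.28 and Atg4b of -0.15, the last 3 with overlapping groups.

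Of the ULK initiation complex, 4 of 5 genes were tested and 1 was a DEG lower in IVO, beside 17.9% of all genes. This was Ulk2, a kinase closely related to Ulk1 (chr11:61665841-61746170, minus strand). Ulk2 stood at 5.34, 5.74 and 2.24 FPKM in the IVM pools and at 1.48, 0.93 and 1.04 in the IVO pools. All IVO values were below all IVM values, although IVM3 was closer to the IVO pools than to the other IVM pools. Its mean FPKM was 3.86-fold lower in IVO, with a log2FC of -1.28 (SE 0.34, adjusted p = 0.0337 by limma). Without IVM1, IVM2, IVO1, IVO2 or IVO3 the log2FC was -1.08 to -1.38 and the adjusted p-value 0.0613 to 0.104, and without IVM3 the log2FC was -1.61 and the call stood. Ulk1 was also scarce, at 1.23 to 2.70 FPKM in IVM and 1.55 to 1.73 in IVO, with a log2FC of -0.12 (SE 0.27, adjusted p = 0.782).

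Rb1cc1, which encodes the scaffold FIP200, was the most abundant gene of the complex, at 50.5, 46.3 and 53.4 FPKM in the IVM pools and 38.5, 41.2 and 33.4 in the IVO pools. These groups did not overlap, but the log2FC of -0.40 (SE 0.18, adjusted p = 0.15) was close to the median of all genes and turned to 0.07 with quantile normalization. Atg101, a small partner of ATG13, had a log2FC of 0.37 (adjusted p = 0.415) and overlapping groups.

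All 6 genes of the class III PI3-kinase complex and its regulators were tested, and their median log2FC was -0.69. Pik3r4, which encodes the pseudokinase scaffold VPS15 (chr9:105520160-105564856, plus strand), was the 1 DEG among them, lower in IVO, beside 17.9% of all genes. It stood at 13.4, 12.1 and 19.4 FPKM in the IVM pools and at 7.30, 7.21 and 5.59 in the IVO pools, with no overlap and a mean 2.24-fold lower in IVO. Its log2FC was -1.03 (SE 0.24, adjusted p = 0.0225 by limma), or -0.74 relative to the median of all genes. Without IVM1, IVM3, IVO1, IVO2 or IVO3 the log2FC was -0.84 to -1.09 and the adjusted p-value 0.0528 to 0.0647, and with median-ratio scaling they were -0.74 and 0.052.

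Ambra1, which encodes a regulator that binds Beclin 1 (chr2:91560294-91749195, plus strand), had by far the highest FPKM of the 39 genes. Its listed length (5203 bases) differs from that of the canonical transcript (5480 bases), and gene-level FPKM cannot tell which transcript of the locus gave the signal. Its FPKM was 4396, 4763 and 4852 in the IVM pools and 2894, 2863 and 2821 in the IVO pools, above the level of 99.7% of all tested genes. Both groups were tight and clearly separated, with a mean 1.63-fold lower in IVO and a log2FC of -0.71 (SE 0.11, adjusted p = 0.00657 by limma), below the fold threshold of a DEG. Relative to the median of all genes the log2FC was -0.41, and with median-ratio scaling it was -0.38 (adjusted p = 0.0935). Through Ambra1, this group of genes held 59.0% to 63.7% of the FPKM of all 39 genes in the IVM pools and 61.0% to 62.4% in the IVO pools.

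The catalytic subunit gene Pik3c3 had a log2FC of -1.43 (SE 0.46), but its values overlapped, at 4.95 to 15.7 FPKM in IVM and 1.86 to 5.27 in IVO, and the adjusted p-value was 0.0645. Atg14, whose product directs the complex to autophagy, stood at 14.2, 34.6 and 31.4 FPKM in the IVM pools and at 15.5, 14.8 and 15.6 in the IVO pools, so that IVM1 lay just below the IVO pools and the other IVM pools above them (log2FC -0.67, adjusted p = 0.194). Without IVM1, Atg14 was called lower in IVO (log2FC -1.06, adjusted p = 0.0249), and without IVO3, Pik3c3 was (log2FC -1.80, adjusted p = 0.0374). Becn1 and Uvrag had log2FC values of 0.33 (adjusted p = 0.267) and 0.18 (adjusted p = 0.78).

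In the group of PI3P effectors, lipid transfer proteins and ATG9, 3 of 5 genes were tested. Of these 3, 1 was a DEG lower in IVO, beside 17.9% of all genes. This was Atg2b, which encodes a bridge-like lipid transfer protein (chr12:105579795-105651569, minus strand). Atg2b was the second most abundant of the 39 genes, at 1151, 1262 and 1199.8 FPKM in the IVM pools and 449, 537 and 573 in the IVO pools. The groups were tight and far apart, with a mean 2.32-fold lower in IVO. Its log2FC was -1.22 (SE 0.15, adjusted p = 0.0028 by limma), or -0.92 relative to the median of all genes. The adjusted p-value was under 0.05 in 15 of 16 alternatives, the exception being the length trend removed together with a replicate term (0.0547). With median-ratio scaling the log2FC was -0.89 and with quantile normalization -0.76, so that the call by fold was lost. Atg2b shares 482 exon bases with Gskip on the opposite strand, which stood at 22.7 to 36.0 FPKM in IVM and 10.5 to 19.7 in IVO. The part of this overlap in the values of Atg2b was not tested. The paralog Atg2a was scarce (1.74 to 5.08 FPKM in IVM and 1.18 to 3.31 in IVO), so Atg2b made up 99.7% ± 0.14 of the ATG2 FPKM in IVM and 99.5% ± 0.233 in IVO (SD, n = 3). Atg2a had a log2FC of -0.29 (adjusted p = 0.636), and Wipi1, which binds PI3P, had one of -0.08 (adjusted p = 0.894).

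All 3 cargo receptor genes were tested and 0 were DEGs, with 1 higher (beside 5.56% of all genes) and 0 lower (beside 31.4%) at an unadjusted p-value under 0.05. Nbr1 was the most abundant, at 38.5, 44.7 and 48.2 FPKM in the IVM pools and 56.5, 58.9 and 68.5 in the IVO pools. Every IVO value lay above every IVM value, and the log2FC was 0.48 (SE 0.18) with an adjusted p of 0.106. It passed with median-ratio scaling (0.80, adjusted p = 0.032) and with quantile normalization (0.97, adjusted p = 0.0148). These were the only 2 of 16 alternatives in which Nbr1 passed, and in the others the adjusted p-value reached 0.259. Sqstm1, whose product is the receptor degraded together with its cargo, was scarce, at 1 to 2.55 FPKM in IVM and 0.73 to 1.76 in IVO, or 24 to 77 inferred fragments per sample (log2FC -0.24, adjusted p = 0.647). Sqstm1 also shares 1412 exon bases with Mrnip on the opposite strand, which was the more abundant of the pair at 8.10 to 14.9 FPKM. Optn had a log2FC of -0.59 (adjusted p = 0.172) with overlapping groups.

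Mitophagy was represented by 5 genes, of which 4 were tested and 0 were DEGs, beside 17.9% lower and 0.606% higher over all genes. The median log2FC of these 4 was -0.10. Bnip3 and Bnip3l encode related receptors of the outer mitochondrial membrane that bind ATG8 proteins, and their log2FC values had opposite signs. Bnip3l, at chr14:67222678-67246356 on the minus strand, stood at 527, 323 and 435 FPKM in the IVM pools and at 273, 252 and 263 in the IVO pools. The IVO pools were tight and below all IVM pools, with a log2FC of -0.67 (SE 0.21) and an adjusted p of 0.0543. Without IVM2, the lowest IVM sample, the log2FC was -0.86 and the adjusted p 0.0254. With median-ratio scaling they were -0.35 and 0.23, and with quantile normalization -0.17 and 0.559. Bnip3, at chr7:138490690-138511253 on the minus strand, stood at 91.5, 71.6 and 64.5 FPKM in the IVM pools and at 103, 123 and 124 in the IVO pools, all of them above the IVM pools. Its log2FC was 0.62 (SE 0.20, adjusted p = 0.0609). Bnip3 passed without IVM1 (0.77, adjusted p = 0.0458) and with median-ratio scaling (0.95, adjusted p = 0.0275) and as a DEG with quantile normalization (1.15, adjusted p = 0.0103). It did not pass with any other sample left out (adjusted p 0.091 to 0.169) or with a replicate term (0.144).

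Within this pair, Bnip3 made up 14.8%, 18.1% and 12.9% of the summed FPKM in the IVM pools and 27.3%, 32.8% and 32.0% in the IVO pools. The share was 15.4 percentage points higher in IVO, and 14.3 to 17.2 points higher with any 1 sample left out. Bnip3l remained the more abundant gene in every sample. The pseudogene Bnip3l-ps was listed at 11.6 FPKM in IVM1, 3.54 in IVO3 and at most 0.13 in the other samples, which leaves the split of reads between the copies uncertain at that level. Fundc1, a receptor of hypoxia-induced mitophagy, stood at 26.6 to 35.5 FPKM in IVM and 35.9 to 37.5 in IVO (log2FC 0.18, adjusted p = 0.544), and Phb2, a prohibitin of the inner membrane, had a log2FC of -0.39 (adjusted p = 0.414).

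The other 7 genes were under the filter and were not tested, and they came from 5 of the 7 role groups. Their mean FPKM over the 6 samples was 0.37 for the lipid scramblase gene Atg9a, 0.288 for Wipi2, 0.218 for Pink1, 0.133 for the ULK partner Atg13, 0.06 for Gabarapl1, 0.042 for Atg4c and 0.02 for Atg4d. Pink1, the kinase that labels damaged mitochondria, rested on 0 to 14 inferred fragments per sample, with 0.39, 0.07 and 0.26 FPKM in the IVM pools and 0.25, 0.34 and 0 in the IVO pools. Atg9a rested on 6 to 51 inferred fragments and Wipi2 on 7 to 42, while the other 5 did not exceed 14 in any sample. Atg13 shares 3412 exon bases with Arhgap1 and Pink1 shares 1514 with Ddost, each on the opposite strand, and the library kit does not mark strand.

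The 3′ ends of the 32 tested genes were searched for the motifs that act on stored mRNAs. In the last 100 bases of the canonical transcript, on the sense strand, the poly(A) signal AATAAA or ATTAAA was found in 25 of 32 (78.1%), beside 78.7% of the 10343 tested protein-coding genes with such a window. The cytoplasmic polyadenylation element, TTTTAT or TTTTAAT, a sequence through which stored oocyte mRNAs can be given a longer poly(A) tail, was found in 3 of 32 (9.4%), beside 18.7%. The 3 genes are Atg16l1, Fundc1 and Phb2, and none of them passed the test. Phb2 and Fundc1 are shown because their elements contrast with the ends of the 3 ATG8 genes shown above and of Atg4a, Bnip3 and Bnip3l, which hold a poly(A) signal but no element. Elements and poly(A) signals are in capitals, and they do not overlap each other in these stretches.
Phb2, chr6:124693884-124693913, plus strand: AATAAAatTTTTATtacttaaagccaaaaa
Fundc1, chrX:17422837-17422866, minus strand: tttcTTTTATtctcattagtgcctcatata
Atg4a, chrX:139947240-139947269, plus strand: ttcaatctgtccATTAAAtacaagtccaag
Bnip3, chr7:138490693-138490722, minus strand: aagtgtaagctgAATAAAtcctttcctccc
Bnip3l, chr14:67222691-67222720, minus strand: acattttgtgccATTAAAgctctcacaaaa
Bnip3 carries AATAAA, as those 3 ATG8 genes do, while Bnip3l and Atg4a carry ATTAAA. A match describes the letters in this window only, and a missing match says nothing of sequence farther upstream.

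Other genes of the pathway were counted in the same way. Of 71 further genes in 4 lists, 55 were tested, of which 8 (14.5%) were called lower in IVO, beside 17.9% of all tested genes, and 0 were called higher, beside 0.606%. At an unadjusted p-value under 0.05 from limma, 14 were lower, beside 31.4%, and 0 higher, beside 5.56%. The count of 8 was 7 with median-ratio scaling, 5 with quantile normalization and 4 without IVM1. Among 11 tested other core autophagy genes, 2 were lower, Mtmr14, a PI3P phosphatase (log2FC -1.60, adjusted p = 0.012), and Zfyve1, a PI3P-binding protein of the sites where autophagosomes form (log2FC -1.53, adjusted p = 0.0136). Among 8 tested genes of autophagosome-lysosome fusion, 2 were lower, the SNARE gene Snap29 (log2FC -2.39, adjusted p = 0.0119) and the tethering complex gene Vps11 (log2FC -1.65, adjusted p = 0.00734). Among 15 tested mTORC1, AMPK and TFEB regulators, 1 was lower, Tsc2, an inhibitor of mTORC1 signalling (log2FC -1.84, adjusted p = 0.0113). Zfyve1 lost its call with any 1 IVM sample left out, Snap29 without IVM1 or IVM2, and Mtmr14 without IVM1. Vps11 and Tsc2 kept theirs with each sample left out.

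Among 21 tested other cargo receptors and mitophagy regulators, 3 were lower, beside 17.9% of all genes, and of these Tomm7 and Fundc2 are described. Tomm7, which stabilizes PINK1 at the outer membrane, stood at 114, 104 and 73.9 FPKM in the IVM pools and at 26.9, 22.9 and 29.7 in the IVO pools (log2FC -1.82, adjusted p = 0.00278). Fundc2 stood at 1.55 to 1.95 FPKM in IVM and 0.05 to 0.51 in IVO, so it reached the filter only through the IVM pools, and its call (log2FC -1.16, adjusted p = 0.022) is not read as a result. The lists' median log2FC values were -0.37, -0.20, -0.20 and -0.03 in the order given.

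Across the 11 genes followed through each setting, which were picked by adjusted p-value or level, the direction turned in 1 case, Rb1cc1. Several settings leave a log2FC unchanged by construction, so directions and calls cannot be compared on equal terms. Among genes outside these 11, Atg12, Atg16l1, Atg4b, Gabarap, Sqstm1, Phb2, Atg2a, Wipi1 and Ulk1 turned from negative to positive with quantile normalization. By the adjusted p-value alone, Map1lc3a and Map1lc3b passed in 16 of 16 alternatives, Atg2b in 15 and Ambra1 in 14. Pik3r4 passed in 7, Atg4a in 6 and Ulk2 in 4 of 15. The log2FC was also set against listed gene length, since mean fragment length differed between the groups. Across the 32 genes Spearman's rho was -0.239 and Pearson's r with the log of the length was 0.006, given as a description, since genes of the same libraries are not independent replicates. The part of fragment length in the calls was not tested beyond the removal of the length trend, after which Map1lc3a, Map1lc3b and Atg2b remained DEGs lower in IVO.

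**Figure D4:**
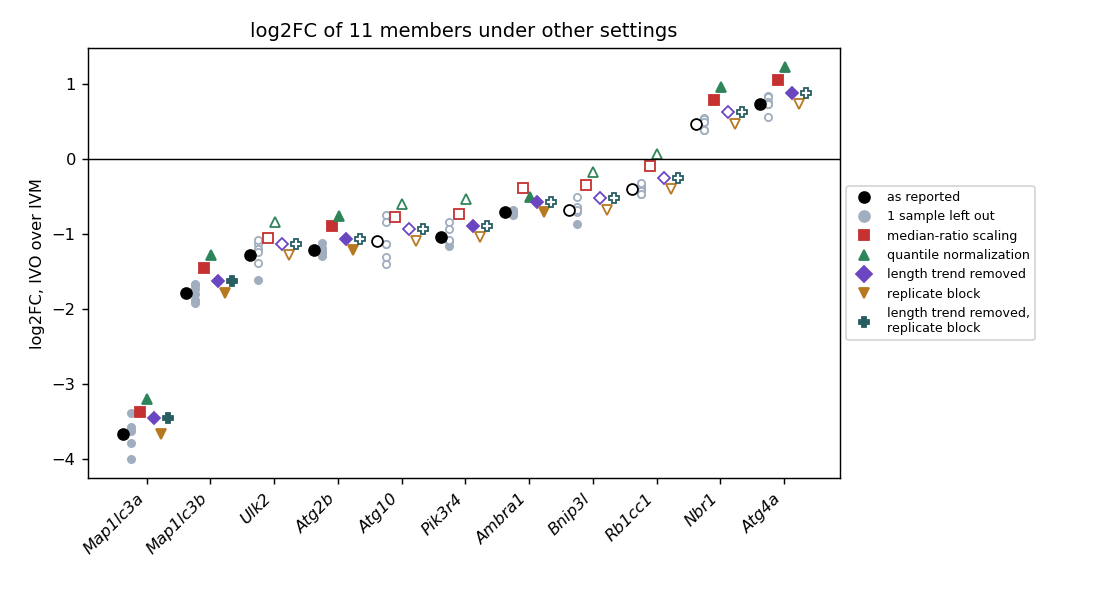
The log2FC of IVO over IVM for 11 genes as reported and under other settings, with gray points for each fit that leaves out 1 sample and filled symbols for an adjusted p-value under 0.05. Map1lc3a runs from -4.0 to -3.20 and Map1lc3b from -1.93 to -1.28 with filled symbols throughout, Rb1cc1 crosses 0 with quantile normalization, and Atg4a stays above 0 with both open and filled symbols.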

How the data were processed

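Paired-end RNA-seq libraries (SMART-Seq v4, Nextera XT) of 6 MII oocyte pools were analysed, 3 IVM and 3 IVO, grouped by their labels. Per the labels and the methods of the study, the authors trimmed reads (SeqPrep, Sickle), mapped them to GRCm39 by HISAT2 2.1.0, and deposited FPKM per gene from RSEM 1.3.3, with group means that were not used. Their DESeq2 1.24.0 results were not used here, and FPKM are not counts, so no count test was run. FPKM are relative to the library, and neither the RNA content per oocyte nor the strandedness setting is given in the sources used here.

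The 18818 genes whose FPKM averaged 1 or more were tested with limma 3.58.1 in R 4.3.3 (lmFit, eBayes with trend) on log2(FPKM + 1), with the group as the only term, two-sided p-values and Benjamini-Hochberg adjustment over all tested genes. The fit was checked on simulated data. The DEG thresholds (|log2FC| ≥ 1, adjusted p-value under 0.05) are those of the study's methods. P-values measure the spread between the pools. Depth was inferred from the low values among 13829 single-transcript genes. Each library had 1058 to 1373 such values, and 60.9% to 65.4% of them came out within 0.1 fragment of a whole number. The fragment numbers are therefore estimates, and they were used only to describe precision. Coordinates, exon overlaps and 3′ ends are those of the GENCODE annotation of GRCm39. Python 3.11.15, pandas 2.3.3, numpy 2.4.6 and matplotlib 3.10.9 were used.

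The genes and lists were chosen with earlier results of these data known. Values in every sample are given for each gene with an adjusted p-value under 0.05 and for the most abundant gene of each role group, and other genes with per-sample values (Gabarapl2, Atg5, Atg14, Bnip3, Pink1 and Tomm7) were picked after their values were seen. Alternatives were a pseudocount of 0.1, no filter, a filter at a mean of 5 FPKM, median-ratio scaling, quantile normalization, eBayes without trend, a replicate term, subtraction of the trend with gene length in each library (lowess, span 0.3), both together, Ensembl genes only, and each sample left out in turn. For the family shares and the further pathway lists, these were chosen after seeing the data. The values of 1 gene of the further pathway lists are not reported here.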

Additional observations from a re-analysis of the deposited data

How the results depend on the processing

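Of 175 recomputed log2FC values of 11 genes, 174 kept their direction and 137 also their side of an adjusted p-value of 0.05. By that p-value alone, 33 no longer passed and 4 passed only then. The fold threshold of a DEG was not part of these counts. The filters, eBayes without trend, the replicate term and the Ensembl-only fit leave a log2FC unchanged, so no direction could turn there. Of these 11 genes, picked by adjusted p-value or level, Rb1cc1 alone turned, to 0.0747 with quantile normalization. Other tested genes turned as well, such as Atg12 (0.12 with quantile normalization) and Uvrag (-0.26 without IVM2). Against 5 genes called lower, 0 called higher and 7 at an adjusted p-value under 0.05, median-ratio scaling gave 2 lower and 1 higher, and quantile normalization gave 2 lower, 2 higher and 11 at an adjusted p-value under 0.05. Removing the length trend left 3 lower. Over all tested genes, 3366 were called lower and 114 higher (96.7% lower), 2102 and 388 after median-ratio scaling (84.4%), 1580 and 1097 after quantile normalization (59.0%) and 1666 and 392 with the length trend removed (81.0%). With 1 sample left out, 3 to 4 genes were called lower and 4 to 6 had an adjusted p-value under 0.05, the lowest counts coming without IVO1 and without IVO2. Of the further pathway genes, 8 were called lower, 5 lower and 1 higher (Nrbf2) with quantile normalization, and 4 to 8 lower with 1 sample left out, 4 without IVM1. The labels do not say whether same-numbered pools were paired, so the replicate numbers were taken as names only. The deviations of same-numbered samples correlated at -0.062, -0.018 and -0.107, which cannot settle whether they were paired. With a replicate block, 3 genes were called lower and 4 had an adjusted p-value under 0.05. With the block and the length trend removed together, both counts were 2 and the further pathway genes gave 3. The cause of these shifts was not tested. FPKM carry no measure of total RNA, so a change shared by all genes cannot be seen, and depth limits the 7 genes under the filter and the IVO values of Map1lc3a and Ulk2.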
